A study of Homo sapiens with 9 samples.

Results

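The aldo-keto reductases are enzymes that use NADPH to reduce aldehydes and ketones to alcohols. They act on sugars, steroids, prostaglandins and the reactive aldehydes left by lipid oxidation. Several human members are textbook targets of NRF2, the transcription factor that is held down by KEAP1 and released by electrophiles and metals. Human cells also carry near-identical AKR1C genes side by side on chromosome 10, so sequencing reads from these genes cannot always be assigned to 1 of them.

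The family was read in MEG-01, an established human megakaryoblast line from the blast crisis of a chronic myeloid leukaemia. The members were the 7 genes AKR1A1, AKR1B1, AKR1B10, AKR1C1, AKR1C2, AKR1C3 and AKR7A2, found by matching the Ensembl IDs of the deposited tables to these symbols, and they account for 7 of 63241 rows. Poly(A) RNA had been sequenced from 9 libraries: 3 of cells without treatment (control), 3 of cells treated with As2S2 (arsenic disulfide) and 3 of cells treated with PMA, a phorbol ester that switches on protein kinase C. The study's design text places As2S2 in work on megakaryocyte differentiation. The labels give no dose and no time, and they do not say whether each of the 3 libraries of a group had its own culture. The p-values therefore measure the spread between these libraries, which may be technical. In libraries made from many cells, more RNA per cell and more cells that hold the RNA cannot be told apart.

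Libraries held 18200501 to 20366870 counts in all. As2S2 replicate 1 and control replicate 2 differed most from the rest of their groups: the chi-square per gene of a replicate pair was 12.5 to 15.9 where a pair held 1 of them and 2.46 to 3.55 in the other pairs. Fold changes of tested members that rest on them are given with and without both. Values of AKR1B10, of the AKR1C sums and shares, of other genes and of the lists are given with both only. Of 17 megakaryocyte markers, 8 stood at 1 TPM or more in every library (FLI1, GATA1, GP1BA, GP6, ITGA2B, ITGB3, NFE2 and SELP), whereas the defining gene TREML1 had 0 counts in all 9 libraries. The summed TPM of 13 erythroid markers ran from 8141 to 8591 in control, 10291 to 11132 in As2S2 and 35116 to 36002 in PMA libraries, and that of the 17 megakaryocyte markers from 387 to 424, 306 to 353 and 261 to 294. These sums follow a few abundant genes. HBG2 alone stood at 7723, 10105 and 35013 TPM, and of 12 tested erythroid markers 3 were higher and 4 lower in PMA than in control (median log2 -0.06). Of 13 tested megakaryocyte markers 9 were higher and 2 lower in PMA (median 1.10), although ITGA2B, the most abundant in control, went from 190 to 68.3 TPM. Over all tested genes, 30.8% were higher and 31.1% lower in PMA. The summed TPM of 11 monocyte markers was 168 to 176, 178 to 198 and 293 to 318, with CD163 at 0. That of 10 lymphoid markers was 3.23 to 5.68, 6.41 to 9.54 and 5.66 to 6.39, with MS4A1 at 0. For 10 epithelial and liver markers the sum was 122 to 141, 164 to 182 and 122 to 123, with KRT19 at 0. Of these lists, 10 of 13 erythroid, 2 of 11 monocyte, 1 of 10 lymphoid and 3 of 10 epithelial and liver markers stood at 1 TPM or more in every library. The part of these shifts in the results was not tested.

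Levels between genes were compared in TPM, transcript abundances that are corrected for length and that sum to 1 fixed total per library. AKR1A1, the broad aldehyde reductase, was the most abundant member in control cells at 88.9 ± 7.77 TPM (SD, n = 3), followed by AKR1C3 at 18.7 ± 0.465. AKR1B1 (12.04 ± 1.26 TPM) and AKR7A2 (11.6 ± 0.663 TPM) came next, and the libraries of these neighbours overlapped. AKR1C2 at 2.29 ± 0.365 TPM and AKR1C1 at 0.943 ± 0.375 TPM were low, and AKR1B10 was at 0.0367 TPM. The order changed with both treatments. In As2S2 libraries AKR1C3 at 83.8 ± 10.8 TPM overlapped AKR1A1 at 83.2 ± 5.28 TPM, and AKR1B1 at 32.6 ± 2.38 TPM stood clear of AKR7A2 at 8.35 ± 0.803 TPM. Below them AKR1C2 (2.95 ± 0.664 TPM) and AKR1C1 (2.89 ± 1.30 TPM) overlapped, and AKR1B10 was at 0.183 TPM. In PMA libraries no neighbours overlapped: AKR1A1 (60.8 ± 3.14 TPM) was followed by AKR1C3 (30.4 ± 1.20), AKR7A2 (13.2 ± 1.81), AKR1B1 (8.87 ± 1.04), AKR1C1 (3.25 ± 0.807) and AKR1C2 (1.59 ± 0.392), and AKR1B10 was listed at 0.

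**Figure D1:**
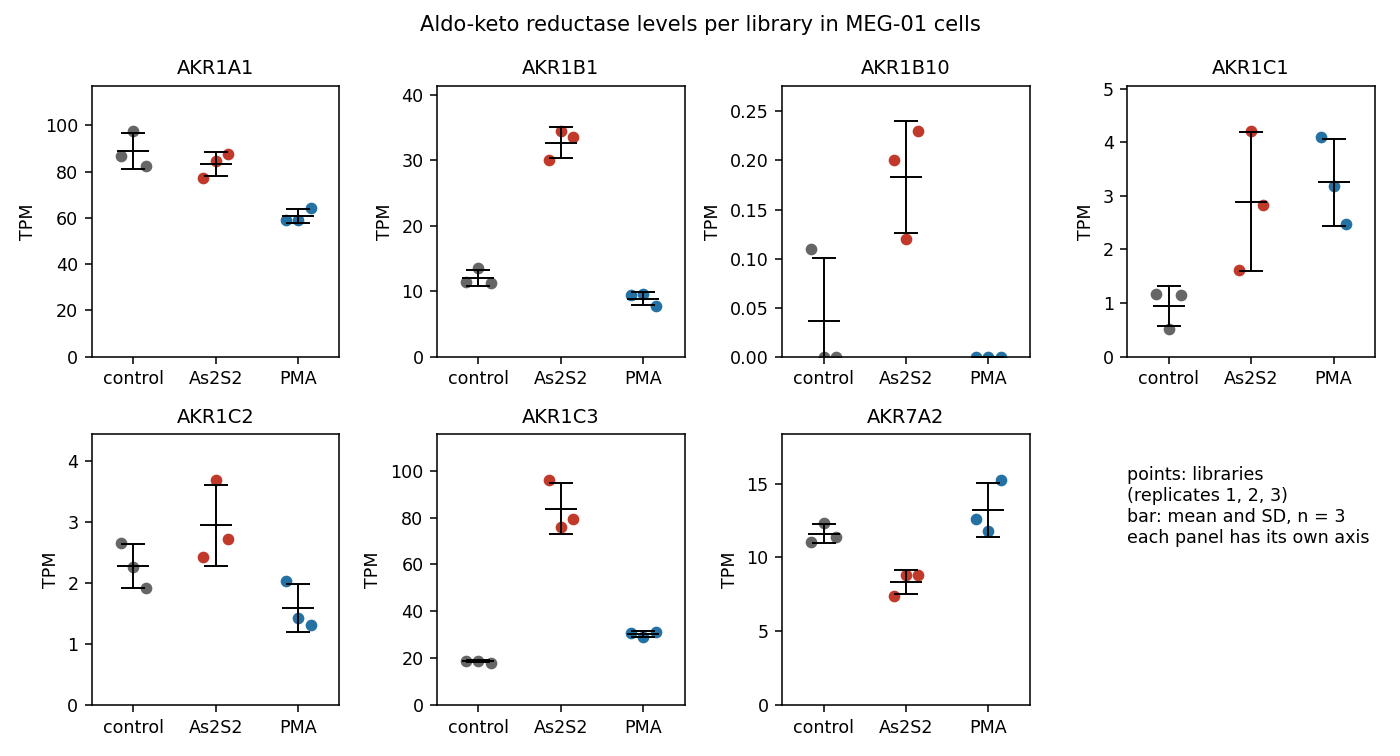
TPM of each of the 7 members in control, As2S2 and PMA libraries, on a linear axis of its own per gene, with points for libraries and bars for the mean and SD (n = 3). AKR1C3 and AKR1B1 sit highest in the As2S2 libraries (means of 83.8 and 32.6 TPM), and AKR1A1 is lowest in PMA (60.8 TPM).

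Comparisons between groups used edgeR's quasi-likelihood F-test on counts, with TMM scaling, and p-values adjusted by the Benjamini-Hochberg method over the 14592 genes tested (threshold 0.05). Of the 7 members, 6 passed the filter on low counts and AKR1B10 did not. Against control, 3 members were higher and 1 lower in As2S2, where 20.3% of all tested genes were called higher and 19.6% lower. In PMA 3 were higher and 1 lower, with 30.8% and 31.1% of all genes. Between As2S2 and PMA, 3 were higher in As2S2 and 2 lower, with 30.9% and 30.6% of all genes. In either direction the 3 comparisons called 39.9%, 61.9% and 61.4% of all tested genes, so the members' calls stand beside a broad change of the transcriptome. The median log2 fold change of the 6 tested members was 1.05 in As2S2, 0.39 in PMA and 0.36 for As2S2 against PMA, beside -1e-04, 0.0048 and -0.0021 over all tested genes. The libraries of the groups compared did not overlap for 5 of the 6 in As2S2 against control (45.8% of all tested genes), 4 in PMA against control (67.5%) and 5 in As2S2 against PMA (67.2%). The PMA and As2S2 comparisons share the 3 control libraries.

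**Figure D2:**
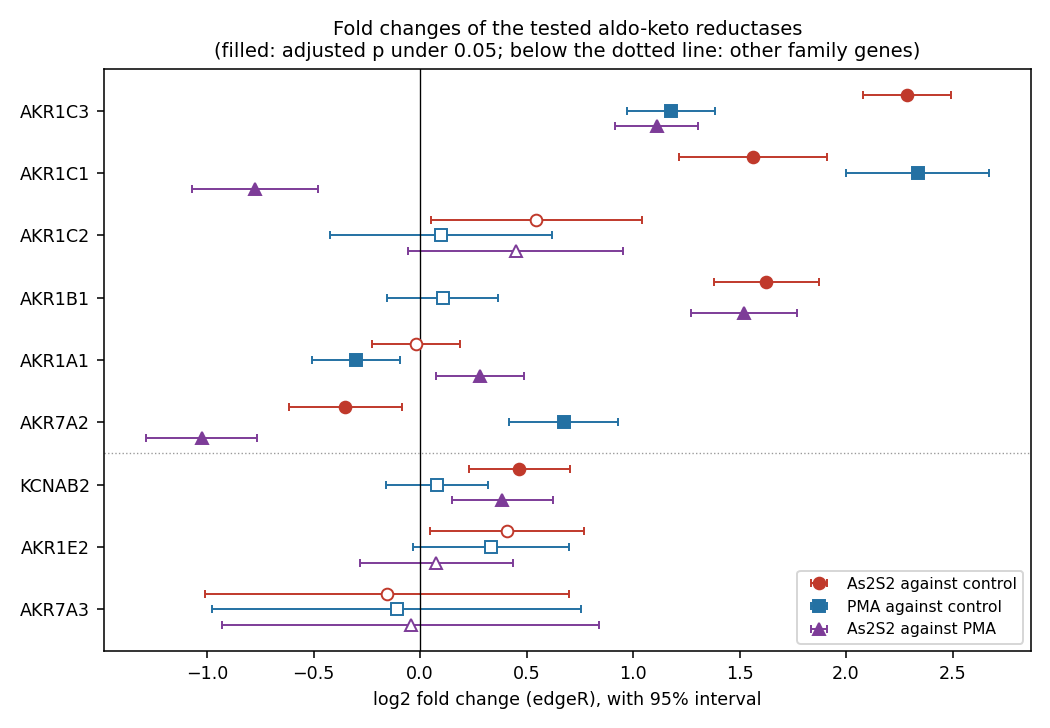
Log2 fold changes (horizontal axis) of the 6 tested members and, below the dotted line, 3 other family genes in the 3 comparisons, with 95% intervals from the edgeR fit and filled symbols for adjusted p under 0.05. AKR1C3 lies highest for As2S2 against control (2.29) and AKR1C1 for PMA against control (2.34), and the 3 symbols of AKR1C2 are open.

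The AKR1C genes encode the hydroxysteroid dehydrogenases of the family: AKR1C1 inactivates progesterone, AKR1C2 inactivates dihydrotestosterone, and AKR1C3 makes testosterone and prostaglandin F. In GENCODE 29 the coding sequences of AKR1C1 and AKR1C2 were 98.04% identical over 969 bases, against 91.43% for AKR1C1 and AKR1C3 and 91.02% for AKR1C2 and AKR1C3. Of all windows of 100 bases in the coding sequence of AKR1C1, 20.7% occurred unchanged in a transcript of another gene, against 26.4% for AKR1C2 and 9.77% for AKR1C3. At 50 bases the shares were 54.3%, 57.1% and 23.0%. Since the read length was not known, and untranslated parts were not scanned, these windows do not give the share of ambiguous reads.

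The copies are also alike ahead of their transcription starts. The 250 bases before the RefSeq starts (build GRCh38.p14) are shown for the 3 genes because the counts of AKR1C1 and AKR1C2 came apart under treatment although their upstream sequences are almost the same. Capitals mark bases that differ from, or have no partner in, the AKR1C1 window within the aligned stretch, and ends beyond that stretch are in lower case.
AKR1C1, chr10:4963165-4963414, plus strand: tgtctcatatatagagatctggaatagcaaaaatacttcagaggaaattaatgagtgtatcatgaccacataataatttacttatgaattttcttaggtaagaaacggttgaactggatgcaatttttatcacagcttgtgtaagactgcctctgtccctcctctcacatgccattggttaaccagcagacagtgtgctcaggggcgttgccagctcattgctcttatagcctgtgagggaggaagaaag
AKR1C2, chr10:5003858-5004107, minus strand: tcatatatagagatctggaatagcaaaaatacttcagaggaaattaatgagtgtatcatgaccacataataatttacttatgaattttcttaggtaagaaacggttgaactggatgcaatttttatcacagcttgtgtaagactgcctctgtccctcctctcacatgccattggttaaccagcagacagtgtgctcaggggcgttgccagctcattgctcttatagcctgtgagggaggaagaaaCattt
AKR1C3, chr10:5094164-5094413, plus strand: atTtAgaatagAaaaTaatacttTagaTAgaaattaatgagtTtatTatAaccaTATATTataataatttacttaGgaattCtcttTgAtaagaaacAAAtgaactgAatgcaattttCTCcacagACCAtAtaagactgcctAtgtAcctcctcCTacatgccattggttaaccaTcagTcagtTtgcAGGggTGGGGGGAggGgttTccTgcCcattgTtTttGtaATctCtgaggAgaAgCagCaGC
The AKR1C2 window was identical to that of AKR1C1 in 245 of 246 aligned bases (99.59%), whereas that of AKR1C3 matched it in 184 of 234 aligned bases (78.63%). A second RefSeq start of AKR1C3 lies at another place in the gene and was not printed. Neither TGACNNNGC, the core of the antioxidant response element that NRF2 binds, nor TGANTCA, the AP-1 site, occurred on either strand of these 3 windows. Among 34788 RefSeq windows of the same length, 10.9% held the former and 6.59% the latter. Sequence outside the windows before RefSeq starts was not searched.

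AKR1C3 (ENSG00000196139) had the greatest rise of the 6 tested members in As2S2. Its normalised counts (CPM, counts scaled to library size by TMM) were 20.9, 23.0 and 19.9 in control, 118, 94.6 and 98.9 in As2S2, and 50.03, 46.5 and 47.7 in PMA libraries. The 3 groups were fully separate, with every As2S2 library above every PMA library and every PMA library above every control. AKR1C3 was 4.88-fold higher in As2S2 than in control (log2 2.29 ± 0.10 SE, adjusted p = 8.39e-11 by edgeR's quasi-likelihood test). It was 2.26-fold higher in PMA (log2 1.18 ± 0.10, adjusted p = 2.84e-08), and 2.16-fold higher in As2S2 than in PMA (log2 1.11 ± 0.09, adjusted p = 3.25e-08). Without control replicate 2 and As2S2 replicate 1 the 3 values were 2.25, 1.23 and 1.02.

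AKR1C1 (ENSG00000187134) rose under both treatments too, but more in PMA. Its CPM was 2.26, 2.02 and 2.27 in control, 6.05, 7.35 and 6.01 in As2S2, and 12.03, 11.5 and 9.74 in PMA libraries. Again no groups overlapped, but the PMA libraries were now the highest. AKR1C1 was 5.05-fold higher in PMA than in control (log2 2.34 ± 0.16, adjusted p = 2.45e-09 by edgeR) and 2.95-fold higher in As2S2 (log2 1.56 ± 0.16, adjusted p = 2.06e-06). As2S2 lay below PMA by a log2 of -0.77 ± 0.14 (adjusted p = 0.000156). On the TPM scale this last difference was not past the threshold (limma on log2(TPM + 1), -0.17, adjusted p = 0.581), and the TPM of As2S2 and PMA libraries overlapped. Between the count fit and that scale, all genes at 10 TPM or more shifted by a median of 0.34 for As2S2 against PMA. Relative to this shift the log2 TPM ratio of AKR1C1 was -0.51. Without control replicate 2 and As2S2 replicate 1 the log2 values were 2.28 in PMA, 1.56 in As2S2 and -0.72 between them. The length that counts and TPM together imply for AKR1C1 varied between libraries, from 0.592 to 1.388 of the median gene, whereas that of AKR1C3 held between 0.415 and 0.448.

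AKR1C2 (ENSG00000151632) was the AKR1C gene that passed the threshold in none of the 3 comparisons of counts. Its CPM was 2.17, 2.07 and 2.14 in control, 2.35, 4.13 and 2.82 in As2S2, and 2.78, 2.08 and 1.99 in PMA libraries. The As2S2 libraries lay above all controls, but As2S2 replicate 1 was close to them, and the PMA libraries overlapped the controls. The log2 difference was 0.54 ± 0.23 in As2S2 (95% interval 0.05 to 1.04, adjusted p = 0.0753 by edgeR) and 0.10 ± 0.25 in PMA (interval -0.43 to 0.62, adjusted p = 0.753). Against PMA the As2S2 value was 0.45 ± 0.24 (interval -0.06 to 0.95, adjusted p = 0.114). Without these libraries (control replicate 2 and As2S2 replicate 1), AKR1C2 was past the threshold in As2S2 against control (0.69, adjusted p = 0.0321) and against PMA (0.62, adjusted p = 0.028). Without As2S2 replicate 2, the highest library, these values were 0.29 (adjusted p = 0.395) and 0.20 (adjusted p = 0.524). PMA against control was 0.07 without control replicate 2 and As2S2 replicate 1. For As2S2, limma on log2(TPM + 1) gave 0.26 (adjusted p = 0.235) against control and 0.61 (adjusted p = 0.007) against PMA. Relative to the median shift of all genes on that scale, the log2 TPM ratio of AKR1C2 in As2S2 against PMA was 0.55.

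The deposited counts need not be whole numbers, and where a read is divided among genes only the sum of their counts is whole. The counts of AKR1C2 were whole numbers (within 0.02) in 0 of 9 libraries and those of AKR1C1 in 1, while the sum of AKR1C1, AKR1C2 and AKR1C3 was whole in 9 of 9. The sum of AKR1C1 and AKR1C2 alone was whole in 5 of 9. A read divided among the 3 genes counts once in their sum. The 3 genes summed stood at 25.6 ± 1.40 CPM in control, 113 ± 11.3 in As2S2 and 61.5 ± 2.94 in PMA (SD, n = 3), with a log2 fold change of 2.15 ± 0.09 in As2S2 (adjusted p = 6.18e-11 by edgeR) and 1.26 ± 0.09 in PMA (adjusted p = 3.93e-09). AKR1C1 and AKR1C2 summed stood at 4.31 ± 0.194, 9.57 ± 1.67 and 13.4 ± 1.55 CPM. That pair was higher in As2S2 by a log2 of 1.15 ± 0.15 (adjusted p = 2.20e-05) and in PMA by 1.63 ± 0.15 (adjusted p = 1.02e-07), and lower in As2S2 than in PMA by -0.48 ± 0.14 (adjusted p = 0.00698). On these TMM-scaled counts, the opposite order of AKR1C3 and the AKR1C1 and AKR1C2 pair over the treatments was present in the sums too. The sums were not fitted on the TPM scale. There AKR1C1 had means of 2.89 in As2S2 and 3.25 in PMA, and AKR1C2 of 2.95 and 1.59.

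The split within that pair also moved. AKR1C1 took 51.4%, 48.9% and 51.3% of the counts of AKR1C1 and AKR1C2 in control, 72.0%, 63.9% and 68.0% in As2S2, and 81.4%, 84.6% and 82.8% in PMA libraries. No groups overlapped. An exact two-sided permutation test gave p = 0.1 for each pair of groups, which is the smallest p that 3 libraries against 3 can give. AKR1C3 made up 83.1% ± 1.61 of the counts of all 3 genes in control, 91.4% ± 2.11 in As2S2 and 78.3% ± 1.73 in PMA (SD, n = 3). How the authors' counting tool assigned the ambiguous reads is not given in the sources used here, and its part in the split of AKR1C1 and AKR1C2 was not tested.

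**Figure D3:**
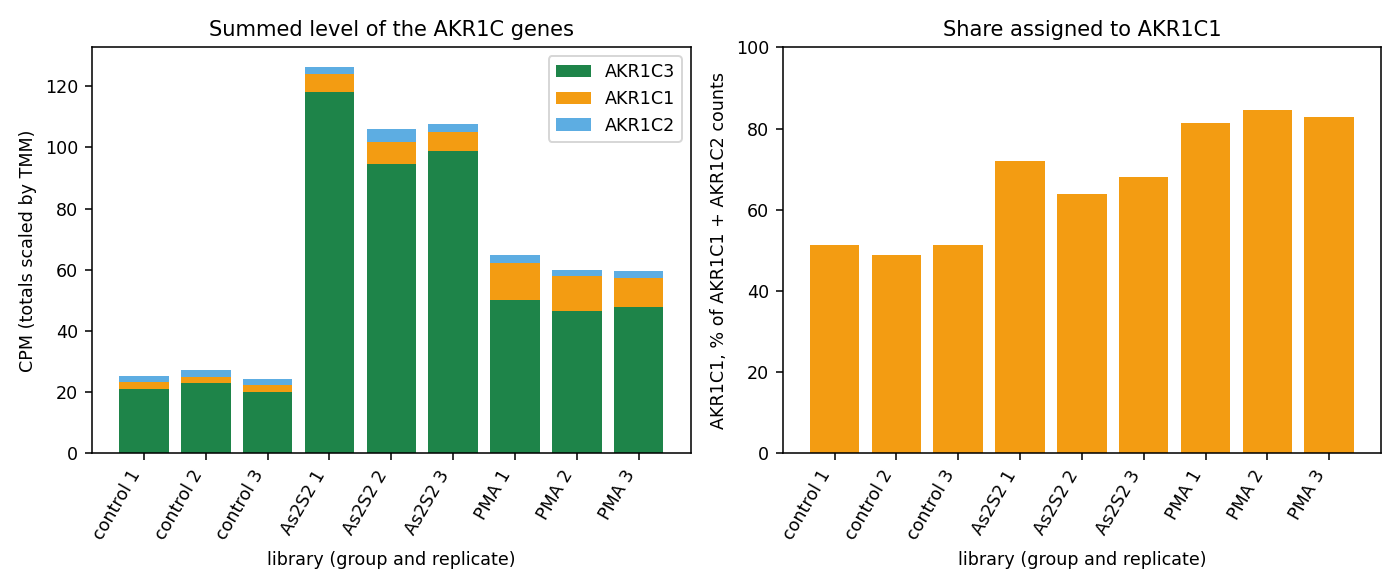
Stacked normalised counts (CPM) of AKR1C3, AKR1C1 and AKR1C2 per library on the left, and on the right the share (in percent) of AKR1C1 in the counts of AKR1C1 and AKR1C2. AKR1C3 is highest in As2S2 (94.6 to 118 CPM) and AKR1C1 in PMA (9.74 to 12.03 CPM), and the share runs from 48.9% in a control to 84.6% in a PMA library.

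AKR1B1 (ENSG00000085662) is aldose reductase, the enzyme that turns glucose into sorbitol at the head of the polyol pathway. Its CPM was 13.2, 16.7 and 13.3 in control, 40.8, 47.5 and 44.7 in As2S2, and 15.98, 17.0 and 13.5 in PMA libraries. All As2S2 libraries stood above all others, and the PMA libraries overlapped the controls. AKR1B1 was 3.09-fold higher in As2S2 than in control (log2 1.63 ± 0.12, adjusted p = 3.57e-08 by edgeR) and 2.87-fold higher than in PMA (log2 1.52 ± 0.12, adjusted p = 1.36e-08). PMA against control gave 0.11 ± 0.12 (95% interval -0.15 to 0.36, adjusted p = 0.473). This value turned with the scale: limma on log2(TPM + 1) gave -0.40 (adjusted p = 0.00653). Between the count fit and the TPM scale, the values of all genes at 10 TPM or more shifted by a median of -0.46 for PMA against control, and relative to this shift the log2 TPM ratio of AKR1B1 was 0.02. Without control replicate 2 and As2S2 replicate 1 AKR1B1 had 1.80 in As2S2, 0.21 in PMA (adjusted p = 0.0648) and 1.59 between them. Counts of AKR1B1 were whole (within 0.02) in 3 of 9 libraries.

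AKR1B10 (ENSG00000198074), the neighbour of AKR1B1 on chromosome 7 that reduces retinal and is known from liver and lung tumours, was barely detected. Its counts were 1, 0 and 0 in control, 7, 2 and 3 in As2S2, and 0, 0 and 0 in PMA libraries. Every As2S2 library was above every other library, but by few counts. The summed counts were 12 in As2S2, 7 of them in As2S2 replicate 1, and 1 in control. The depth-corrected ratio was 12.4, with an exact 95% interval of 1.83 to 528 that covers counting error only. With no filter on low counts, edgeR gave adjusted p = 0.0926 for As2S2 against control and 0.0176 against PMA. The authors' deposited values list a log2 fold change of 3.60 for As2S2 against control. The adjusted p beside it can stand for a gene without a test, so it is not read as a result. Coding sequences of AKR1B1 and AKR1B10 were 77.07% identical, and 28.5% of the windows of 50 bases in the AKR1B10 coding sequence occurred in a transcript of another gene.

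AKR1A1 (ENSG00000117448, on chromosome 1) reduces glucuronate and many small aldehydes. Its CPM was 88.8, 114 and 84.5 in control, 86.8, 98.5 and 97.5 in As2S2, and 77.1, 77.4 and 78.2 in PMA libraries. As2S2 and control libraries overlapped, and all PMA libraries lay below both. As2S2 against control gave a log2 of -0.02 ± 0.10 (95% interval -0.23 to 0.19, adjusted p = 0.892 by edgeR). PMA was lower than control by a log2 of -0.30 ± 0.10 (adjusted p = 0.0137), and As2S2 was higher than PMA by 0.28 ± 0.10 (adjusted p = 0.0203). Control replicate 2, at 114 CPM, decided part of this. Without it the PMA value was -0.17 (adjusted p = 0.0635), and without it and As2S2 replicate 1 the As2S2 value turned to 0.18 (adjusted p = 0.0066) and the PMA value was -0.17 (adjusted p = 0.00434). The call of As2S2 against PMA was lost without As2S2 replicate 2 or 3 or PMA replicate 1 or 2 (log2 0.26 to 0.28, adjusted p 0.0515 to 0.0616). That call held without control replicate 2 (0.29, adjusted p = 0.00102). Without control replicate 2 and As2S2 replicate 1 together it was 0.35 (adjusted p = 1.545e-06).

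AKR7A2 (ENSG00000053371), which reduces succinic semialdehyde and aflatoxin dialdehyde, was higher in PMA and lower in As2S2 than in control. The 250 bases before its RefSeq start (build GRCh38.p14) are shown because they were the only member windows among the 6 genes found in the promoter table that held the antioxidant response element core. Capitals mark the 3 matches to TGACNNNGC, at -167 to -159 (minus strand), -156 to -148 and -95 to -87 from the start.
AKR7A2, chr1:19312147-19312396, minus strand: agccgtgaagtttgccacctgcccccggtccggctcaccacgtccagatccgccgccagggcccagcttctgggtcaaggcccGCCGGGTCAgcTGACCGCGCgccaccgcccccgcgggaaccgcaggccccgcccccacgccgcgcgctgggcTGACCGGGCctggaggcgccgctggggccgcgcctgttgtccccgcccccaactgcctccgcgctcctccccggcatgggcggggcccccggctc
The windows of AKR1A1 and AKR1B1 held neither this core nor TGANTCA, and AKR1B10 was not in the table. A match describes letters and does not show binding. G and C made up 78.8% of the AKR7A2 bases shown. They made up 60.4% in AKR1A1, and 68.0% and 50.8% in the windows of AKR1B1. The printed AKR1C1, AKR1C2 and AKR1C3 windows held 40.8%, 40.0% and 35.6%. The part of base content in the matches was not tested.

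The CPM of AKR7A2 was 14.2, 17.8 and 14.6 in control, 10.7, 12.6 and 13.1 in As2S2, and 24.5, 22.2 and 27.6 in PMA libraries. The 3 groups did not overlap, with PMA highest and As2S2 lowest. AKR7A2 was 1.59-fold higher in PMA than in control (log2 0.67 ± 0.12, adjusted p = 0.00014 by edgeR). It was lower in As2S2 than in control by a log2 of -0.35 ± 0.13 (adjusted p = 0.0347) and lower than in PMA by -1.03 ± 0.12 (adjusted p = 2.39e-06). The call in As2S2 was lost without control replicate 2 (-0.24, adjusted p = 0.12), As2S2 replicate 1 (-0.27, adjusted p = 0.116), As2S2 replicate 2 (-0.38, adjusted p = 0.0625) or PMA replicate 1 (-0.35, adjusted p = 0.0511), and without control replicate 2 and As2S2 replicate 1 together it was -0.16 (adjusted p = 0.242). Without both, the log2 was 0.775 for PMA against control and -0.94 for As2S2 against PMA. On log2(TPM + 1) the value of PMA against control was 0.17 (limma, adjusted p = 0.201), and the log2 TPM ratio relative to the median shift of that scale was 0.64.

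Of 12 other genes of the superfamily, 11 had a count in some library and 3 were tested. KCNAB2, a beta subunit of voltage-gated potassium channels with an aldo-keto reductase fold, was higher in As2S2 than in control by a log2 of 0.47 ± 0.11 (adjusted p = 0.00338 by edgeR) and than in PMA by 0.39 (adjusted p = 0.00693), with 0.08 (adjusted p = 0.562) for PMA against control. AKR1E2 had values of 0.41 ± 0.17 in As2S2 (adjusted p = 0.0672) and 0.33 in PMA (adjusted p = 0.106), and AKR7A3, the neighbour of AKR7A2, of -0.15 and -0.11, none past the threshold. The rest were traces. In the order control, As2S2 and PMA, summed counts were 10, 0 and 19 for KCNAB1, 6, 8 and 0 for AKR1C8, 1, 4 and 10 for AKR7L, and 10.9, 8.12 and 1 for AKR1C7P. AKR1C4, the liver form, had 0, 2 and 0 counts, AKR1D1 0, 1 and 2, AKR1B15 1, 1 and 1, and KCNAB3 2, 3 and 1.

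Genes that work beside the family were read from 8 lists. The counts called in each list stand beside the shares of all tested genes. These were 20.3% higher and 19.6% lower in As2S2, and 30.8% and 31.1% in PMA. For As2S2 against PMA they were 30.9% and 30.6%. Other NRF2 targets were mostly higher in As2S2: of 24 tested, 17 were higher and 1 lower (median log2 0.66, beside -1e-04 over all genes), and in PMA 12 were higher and 7 lower (median 0.31, beside 0.0048). In As2S2 HMOX1, the heme oxygenase, rose by 5.03 ± 0.10 on the log2 scale (± SE), GCLM, a subunit of the first enzyme of glutathione synthesis, by 2.08 ± 0.08, the autophagy receptor SQSTM1 by 1.55 ± 0.08 and ferritin heavy chain FTH1 by 1.47 ± 0.08. In PMA ferritin light chain FTL rose by 1.49 ± 0.10, SQSTM1 by 1.40 ± 0.08 and the peroxiredoxin PRDX1 by 1.25 ± 0.06. Beside the targets named for As2S2, AKR1C3 (2.29) stood below HMOX1 and above GCLM. Those genes were picked by smallest adjusted p and not by fold change, so this gives no rank among all targets. Of NRF2 and its 8 partners or relatives, 4 of 9 were higher and 2 lower in As2S2, and 2 higher and 5 lower in PMA (medians 0.14 and -0.23). NFE2L2, which encodes NRF2, fell in As2S2 (-0.36 ± 0.08) and in PMA (-0.66 ± 0.08). MAFG, its DNA-binding partner, rose in As2S2 (0.58 ± 0.07) and had -0.09 ± 0.07 in PMA. KEAP1 had 0.14 ± 0.09 in As2S2 and -0.42 ± 0.09 in PMA, and BACH1, the repressor of the same sites, 0.00 ± 0.13 and -0.50 ± 0.13.

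The enzymes that supply NADPH were called in both directions. Of 12, 4 were higher and 3 lower in As2S2 (median 0.08), beside 20.3% and 19.6% of all tested genes. In PMA 3 were higher and 6 lower (median -0.19), beside 30.8% and 31.1%. In As2S2 the pentose phosphate enzymes PGD (0.75 ± 0.07) and TALDO1 (0.62 ± 0.07) rose and the folate enzyme MTHFD1 fell (-0.53 ± 0.09). In PMA MTHFD2 (-1.61 ± 0.08), IDH1 (-1.11 ± 0.09) and MTHFD1 (-0.82 ± 0.09) fell. Of 7 tested genes of the polyol and fructose list, 1 was higher and 3 lower in As2S2 and 1 higher and 4 lower in PMA (medians -0.07 and -0.40). SORD, the sorbitol dehydrogenase that follows AKR1B1, had -0.07 ± 0.07 in As2S2 and fell in PMA (-0.75 ± 0.07), and hexokinase HK2 fell in both (-1.13 ± 0.08 and -1.68 ± 0.08). In As2S2 ketohexokinase KHK (-0.95 ± 0.24) and TKFC (-1.04 ± 0.12) fell and ALDOC rose (0.46 ± 0.13), which in PMA rose by 2.74 ± 0.12.

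Other enzymes that reduce carbonyls or oxidise aldehydes moved in both directions. Of 25 tested short-chain carbonyl reductases, 7 were higher and 8 lower in As2S2, 13 higher and 3 lower in PMA, and 3 higher and 15 lower in As2S2 against PMA, with medians of 0.06, 0.54 and -0.64. HPGD, which inactivates prostaglandins, fell in As2S2 (-2.39 ± 0.11) and rose in PMA (1.26 ± 0.10), and the retinol dehydrogenase RDH10 did likewise (-0.68 ± 0.07 and 1.93 ± 0.07). DHRS11 (-1.62 ± 0.13) and CBR4 (-1.01 ± 0.11) fell in As2S2, and DHRS9 rose in PMA (4.73 ± 0.26). Of 12 tested aldehyde dehydrogenases, 1 was higher and 4 lower in As2S2, with the retinal dehydrogenase ALDH1A1 at -2.01 ± 0.11, and 3 were higher and 2 lower in PMA, with ALDH7A1 at 0.89 ± 0.14 (list medians -0.10 and -0.02). Of the 2 alcohol dehydrogenases tested, 0 were called in As2S2 and 2 were higher in PMA, among them ADH5 (0.72 ± 0.09), with medians of 0.14 and 0.78.

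Prostaglandin H is the substrate of AKR1C3 and AKR1B1 in making prostaglandin F. Of 7 tested prostaglandin synthases and receptors, 3 were higher and 0 lower in As2S2 and 4 higher and 1 lower in PMA (medians 0.33 and 0.21). Thromboxane synthase TBXAS1 (1.97 ± 0.11), cyclooxygenase PTGS1 (0.47 ± 0.07) and HPGDS (0.45 ± 0.13) rose in As2S2. In PMA PTGS2 (1.45 ± 0.24) and PTGS1 (1.36 ± 0.07) rose and PTGFRN fell (-1.13 ± 0.09).

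**Figure D4:**
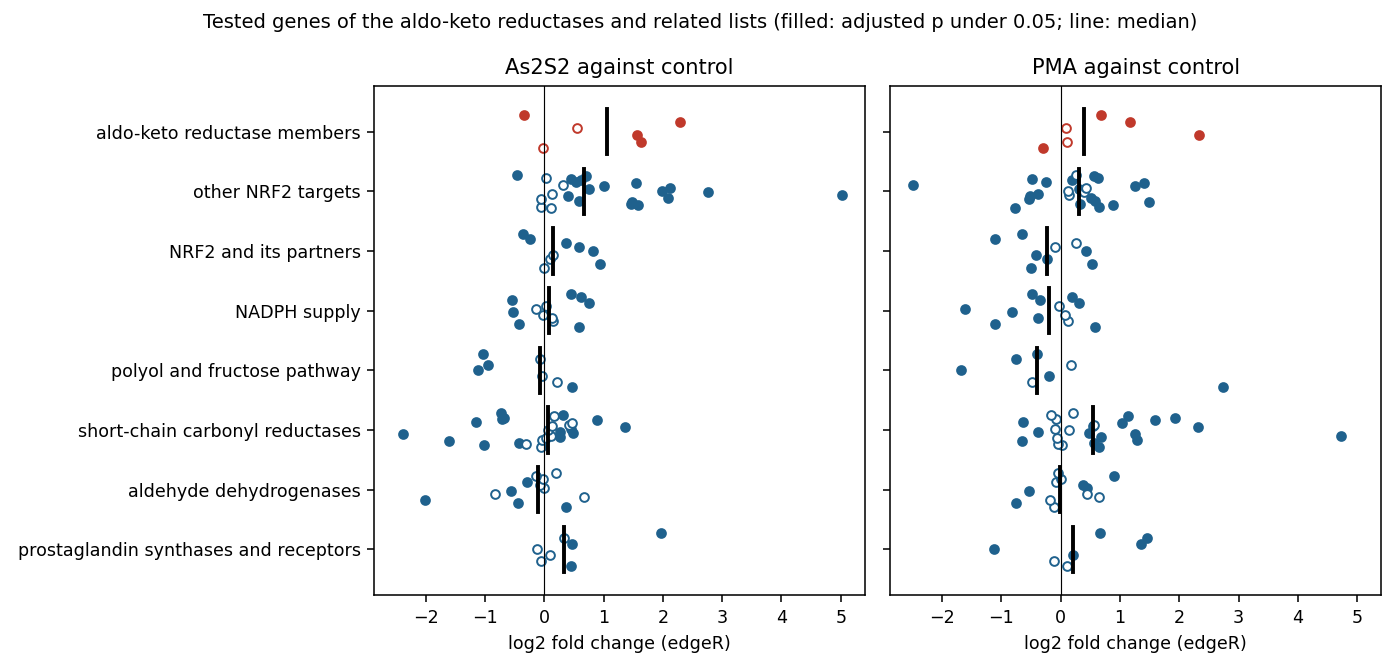
Log2 fold changes (horizontal axis) of the tested genes of the members and 7 related lists in As2S2 and in PMA against control, with 1 point per gene, filled for adjusted p under 0.05 by edgeR, and a bar at the median. Other NRF2 targets hold 17 higher and 1 lower gene in As2S2, and short-chain carbonyl reductases 13 higher and 3 lower genes in PMA.

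Across the 9 libraries the members followed different patterns. The Pearson correlation of log2 CPM was 0.867 between AKR1B1 and AKR1C3, 0.652 between AKR1C1 and AKR1C3, and 0.305 between AKR1C1 and AKR1C2, the most alike in sequence. These points share libraries and their depth, and fall into 3 groups, so the values are descriptions. Of 9774 genes whose mean reached 5 CPM, those most like AKR1C3 were PSMD11 (r = 0.995), the metallothionein MT1X (0.994) and PDP1 (0.987). For AKR1C1 they were RBX1 (0.998), SLC6A6 (0.996) and CTSL (0.992), and for AKR1B1 COMMD9 (0.995), RAB15 (0.993) and RFLNB (0.993). AKR7A2 was most like MICOS13, ATP5IF1 and IRF2BPL (0.988 each), and AKR1A1 most like GPSM3 (0.989), CD37 (0.984) and B4GALT3 (0.981). AKR1C2 had no gene above 0.95, and its nearest were GRB2 (0.879), BANF1 (0.875) and MYO18A (0.873). By that mark 77 genes were as like AKR1C3, 214 AKR1C1, 131 AKR1B1, 39 AKR1A1 and 134 AKR7A2.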

How the data were processed

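Poly(A) RNA of MEG-01 cells was sequenced in 9 libraries (NEBNext Ultra II, per the labels), 3 each of control, As2S2 and PMA, grouped by sample labels. Per the submitters' processing notes fastp 0.22.0 and DESeq2 were used. Those notes name zebrafish builds and 1 control library carries another organism's label, whereas the row IDs are human Ensembl IDs. Not given in the sources used here are aligner, counting tool, strand setting, annotation and read length. The authors deposited, per the file headers, expected counts (estimated counts, not normalized) and TPM per gene and library. The same deposited tables give the authors' log2 fold change and adjusted p-value per gene, where an adjusted p-value of 1 can stand for a gene without a test. The control columns of both tables differed in 0 values. Symbols were found for 62666 of 63241 IDs.

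Expected counts were rounded, filtered with filterByExpr (14592 genes), scaled by TMM and fitted once over the 9 libraries with edgeR 4.0.16 in R 4.3.3 (glmQLFit, glmQLFTest, Benjamini-Hochberg adjustment, threshold 0.05). SEs are the log2 fold change over the square root of F. Errors beside CPM, TPM and shares are SDs over 3 libraries. CPM for correlations had a prior count of 2. Intervals of count ratios cover counting error only. Sequence comparisons used GENCODE 29 transcripts, and upstream windows came from a RefSeq table.

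The text names each member, other superfamily genes with a count, up to 4 genes per list with the smallest adjusted p in As2S2 and 3 in PMA (mean of at least 1 CPM), KEAP1, BACH1, MAFG and NFE2L2, and the 3 genes most correlated with each member. SORD in As2S2 falls outside this rule, and some genes that it takes are not reported here. The members and lists were chosen with earlier results of these data known. Alternatives were upper-quartile and RLE scaling, limma-voom (limma 3.58.1), DESeq2 1.42.0, 2 other filters, a fit of the groups compared, a replicate block, a threshold of 0.01, limma on log2(TPM + 1) and log2(TPM + 0.1), and libraries left out.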

Additional observations from a re-analysis of the deposited data

How the results depend on the processing

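The rises of AKR1C3, AKR1C1 and AKR1B1 in As2S2, of AKR1C3 and AKR1C1 in PMA, and the values of AKR1C3 and AKR1B1 in As2S2 against PMA kept their direction and call under all 21 alternatives run. Values not past the threshold turned sign as follows. AKR1A1 in As2S2 ran from -0.098 to 0.12 on the log2 scale with 1 library left out and was 0.18 without control replicate 2 and As2S2 replicate 1. AKR1C2 in PMA ran from -0.060 to 0.19 with 1 library left out, and was -0.35 on log2(TPM + 1) and -0.51 on log2(TPM + 0.1). AKR1B1 in PMA was -0.40 and -0.44 on those scales. The log2 ratios of mean TPM moved in CPM scaled by TMM: for PMA against control from -0.55 to -0.30 (AKR1A1), -0.44 to 0.10 (AKR1B1), -0.52 to 0.10 (AKR1C2), 0.70 to 1.18 (AKR1C3) and 0.19 to 0.67 (AKR7A2), for As2S2 against PMA from 0.45 to 0.28 (AKR1A1), 1.88 to 1.52 (AKR1B1), 1.46 to 1.11 (AKR1C3) and -0.66 to -1.03 (AKR7A2), and for As2S2 against control from 1.44 to 1.62 (AKR1B1). Listed are the ratios that moved by more than the combined SD of the gene's log2 TPM in the groups compared. AKR1C1, with a wider SD, went from 1.79 to 2.34 for PMA against control. For As2S2 against PMA it went from -0.17 to -0.78, and AKR1C2 from 0.89 to 0.44, also within the SD. From counts to the TPM scale, genes at 10 TPM or more shifted by a median of -0.12, -0.46 and 0.34 for As2S2 against control, PMA against control and As2S2 against PMA. With the replicate number as a block, 5972, 9180 and 9044 genes and 4, 4 and 5 members were called and no member's call changed. Deviations of same-numbered libraries correlated by -0.073 to 0.149, so the numbers were not taken as pairs. The cause of these moves was not tested. Low counts limit AKR1B10, and reads shared between AKR1C1 and AKR1C2 limit what can be said of each alone.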
